A study of Homo sapiens with 6 samples.

Results

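The genes described here are 43 genes of DNA repair and of the damage checkpoint, grouped by role into homologous recombination, the Fanconi anaemia pathway, the MRE11-RAD50-NBN complex, mismatch repair, end joining, checkpoint kinases, base excision repair and nucleotide excision repair. Members were taken by symbol, as all probe sets whose annotation gives exactly 1 of the 43 symbols or an older name of it. They comprised 78 probe sets for 39 genes, of 12558 probe sets and 8226 named genes in all. BRCA2 and FANCA were not analysed here, and PMS2 and ERCC5 were left out because each of their probe sets carries several symbols. All samples were U373, an established human glioblastoma line, profiled on 6 Affymetrix Human Genome U95 Av2 arrays with 1 array for each group. The 2 arrays of syk-transfected cells given ethanol and 10 µM PonA, at day 1 and at day 2, were set against 3 control arrays of syk-transfected cells, which were ethanol-treated at day 1, untreated at day 1 and untreated at day 2. The sixth array held cells with neither transfection nor treatment at day 1. PonA is ponasterone A, an insect steroid that switches on a gene placed under an ecdysone-inducible promoter, and SYK is a non-receptor tyrosine kinase that works downstream of immune receptors. The labels state 6 to 48 hours of PonA for the series and not for each array, no untransfected cells received PonA, and nothing states whether the transfected cells are 1 clone.

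Cells mend DNA by several routes. Homologous recombination copies an intact sister chromatid and is therefore largely a process of S and G2 phase, and many of its genes are transcribed in a cell cycle-dependent way. Base excision repair removes single damaged bases, nucleotide excision repair cuts out bulky lesions, and end joining seals double-strand breaks, and these routes are available throughout the cell cycle. The kinases ATM and ATR sense damage and act through CHEK2 and CHEK1 to hold the cycle.

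Values are MAS5 signal, the summary intensity of a probe set on a linear scale. A signal under the 40th percentile of its array was treated as not measured and set to that percentile, called the floor, which lay between 22.7 and 26.5. The PonA effect is the difference on the log2 scale between the PonA arrays and the control arrays, adjusted for day, from a limma fit over the 5 transfected arrays, with Benjamini-Hochberg adjustment over all 7934 probe sets tested and a threshold of 0.05. SE is the moderated standard error of that fit. Both PonA arrays also received ethanol, but the untreated controls did not and day 2 has no ethanol array. The PonA effect can therefore include an effect of ethanol. With 1 array in each group the 2 residual degrees of freedom hold the difference between ethanol and no treatment at day 1 and the difference of the PonA effect between the days, so that the p-values do not measure the spread of repeated cultures. A probe set was tested when at least 2 of those 5 arrays exceeded the floor, which left 55 of the 78 member probe sets, in 30 genes. A bulk signal cannot separate fewer cells expressing a gene from less RNA per cell.

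The arrays had been scaled by the authors to a common level. For beta-actin the 3' to 5' ratio was 1.20 with PonA and 1.21 without treatment at day 2, against 0.960 to 0.987 on the day 1 arrays, while for GAPDH it stayed within 0.939 and 1.04. The geometric mean of the spike-in probe sets was 501 and 352 on the PonA arrays, 271 on the ethanol array, 474 and 405 on the untreated transfected arrays and 157 on the untransfected array, and its part in the results below was not tested. The SYK probe set 548_s_at gave 39.1 and 72.5 with PonA, against 14.4 to 22.2 on the control arrays, and its PonA effect of 1.04 ± 0.26 did not pass (adjusted p = 0.0803). A second SYK probe set, 1630_s_at, had an effect of 0.10 ± 0.24, and the other, 36885_at, was under the floor on every array. RXRA, the receptor that pairs with the ecdysone receptor, gave 640 to 867 on the transfected arrays and 95.0 on the untransfected array with 405_at, but 239 to 266 on the transfected arrays and 375 on the untransfected array with 32800_at. Of 9 astroglial markers with a probe set, 5 were above the floor on all 6 arrays, GFAP, VIM, CD44, FABP7 and SOX9, while AQP4 was under it on all 6. The summed signal of the astroglial list was 10824 and 10032 with PonA and lay between 10157 and 11195 on the control arrays. VIM made up most of that sum, and within the list SLC1A3, a glial glutamate transporter, rose, at 193 and 225 with PonA against 22.8 to 38.8 on the control arrays (2.88 ± 0.26, adjusted p = 0.0041). Of 8 neuronal markers 1 was above the floor on every array, SYN1, and of 5 oligodendrocyte markers 3 were, MOG, MAG and CNP. Of 8 haematopoietic markers 2 were, CD3E and AIF1, with PTPRC, the defining leukocyte gene, under the floor throughout. Of 5 epithelial markers 2 were, KRT8 and KRT18, with EPCAM and KRT19 under the floor on all 6. The summed endothelial markers gave 110 and 67.0 with PonA, against 49.3 to 65.7 on the control arrays, with CDH5 and VWF under the floor on all 6. Within that list TEK, a receptor kinase of endothelium, rose, at 61.0 and 44.6 with PonA against 11.2 to 21.9 on the control arrays (1.11 ± 0.17, adjusted p = 0.0207). The part of these markers in the results was not tested.

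Few repair genes moved with PonA past the threshold. RAD51C and RAD54L, both genes of homologous recombination, were 1.81-fold lower with PonA, each on 1 of its 2 probe sets only. Of the 55 member probe sets tested these 2 fell and none rose. Over all probe sets tested, 2.37% fell and 2.7% rose, or 5.07% in either direction, so that 3.64% of member probe sets lower is near the background and is not a result about the members. At an unadjusted p under 0.05, 7 of the 55 were lower and 4 higher, against 9.02% and 10.5% of all probe sets. The direction of the estimates was less even, since 40 of the 55 effects were negative, against 49.2% over all probe sets. The median effect was -0.21 over the member probe sets against 0.01 over all. For BLM, XRCC3, BRCA1 604_at, MRE11 32870_g_at and MSH6 1017_at neither PonA signal exceeded the floor. They were tested only because control arrays did. Their effects could hardly be positive, so the count of negative effects partly reflects the floor and the filter. Both PonA arrays lay below all 3 control arrays for 20 of the 55, against 16.2% of all probe sets, and above them for 7, against 16.7%. These orders were taken from the signals before the floor was applied, so some of them, as for BLM, rest on values under it. Several probe sets of 1 gene share their transcript and are not independent of each other.

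**Figure D1:**
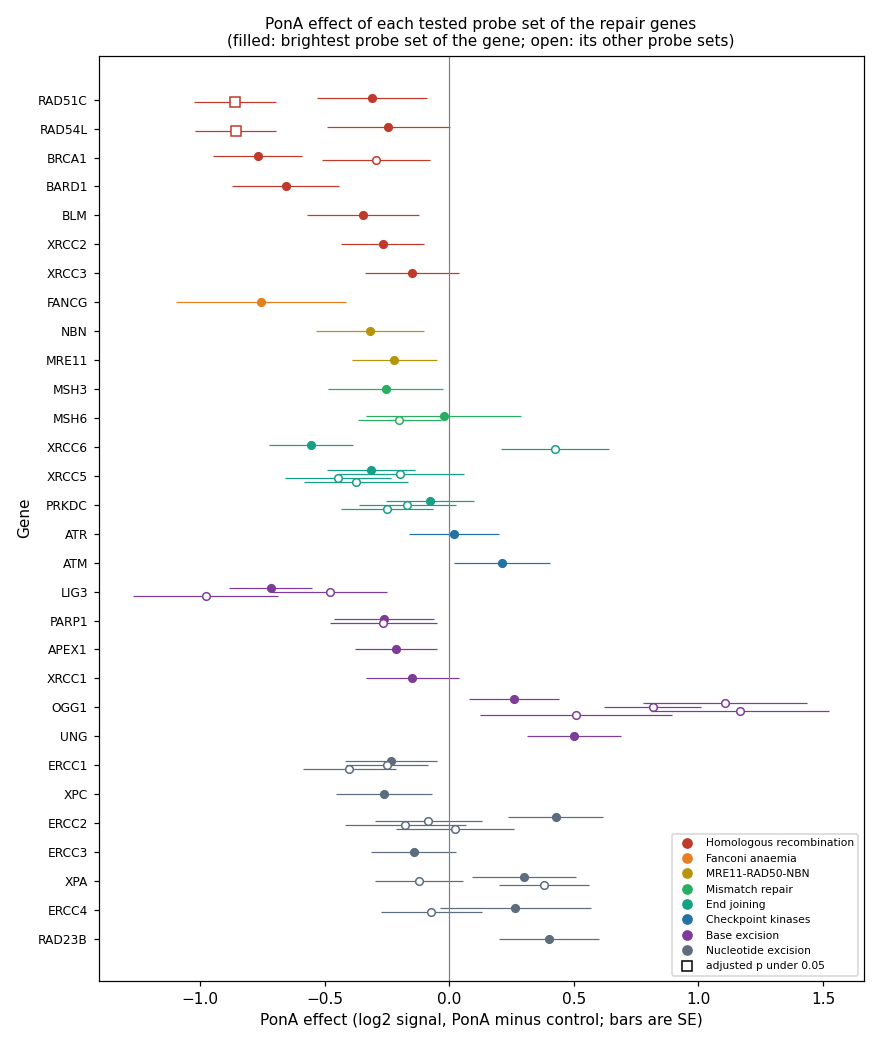
Log2 PonA effect (PonA minus control, x axis) of each of the 55 tested probe sets by gene (y axis), coloured by role, with bars for the SE of the limma fit; filled points are the brightest probe set of a gene, open points its others, and squares passed an adjusted p of 0.05. All 10 probe sets of the 7 homologous recombination genes lie left of 0, all 5 of OGG1 lie right of it, and the squares are RAD51C and RAD54L. For BLM, XRCC3, BRCA1 604_at, MRE11 32870_g_at and MSH6 1017_at both PonA arrays were at the floor, which all but fixed the sign.

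RAD54L encodes a DNA-dependent motor protein that acts during strand invasion of the homologous duplex. Its probe set 967_g_at gave 42.3 and 61.0 with PonA at day 1 and day 2, against 76.1 with ethanol and 76.0 and 111 without treatment at day 1 and day 2, and 99.2 in untransfected cells. Both PonA arrays were below all controls, and at day 2 the PonA and the untreated array were both higher than at day 1. The effect was -0.86 ± 0.16 (SE, limma adjusted p = 0.0367), with within-day differences of -0.85 over ethanol and -0.85 over untreated cells at day 1 and -0.87 at day 2. The brighter RAD54L probe set, 966_at, designed on the same transcript, gave 76.5 and 77.8 with PonA, against 99.8 with ethanol and 64.1 and 109 untreated, and 114 in untransfected cells, so its PonA and control arrays overlapped. Its effect was -0.24 ± 0.24 (adjusted p = 0.654).

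RAD51C encodes a subunit of complexes that assist homologous recombination. Its probe set 41479_s_at gave 26.9 and 25.7 with PonA, close to the floor, against 46.2 with ethanol and 46.9 and 49.5 untreated, with no overlap, and 41.5 in untransfected cells. The effect was -0.86 ± 0.17 (SE, limma adjusted p = 0.0388), or 1.81-fold lower with PonA. The brighter probe set, 41480_at, gave 38.8 and 56.3 with PonA, against 37.6 with ethanol and 55.8 and 74.2 untreated. There the ethanol array was as low as the PonA array of day 1, and the effect was -0.31 ± 0.22 (adjusted p = 0.519). Neither call held without the PonA array of day 1 or of day 2 or without the untreated array of day 2, where the adjusted p was between 0.201 and 0.272, and effects lay between -0.79 and -0.95. The signals of both genes by array are in the plot of signals.

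**Figure D2:**
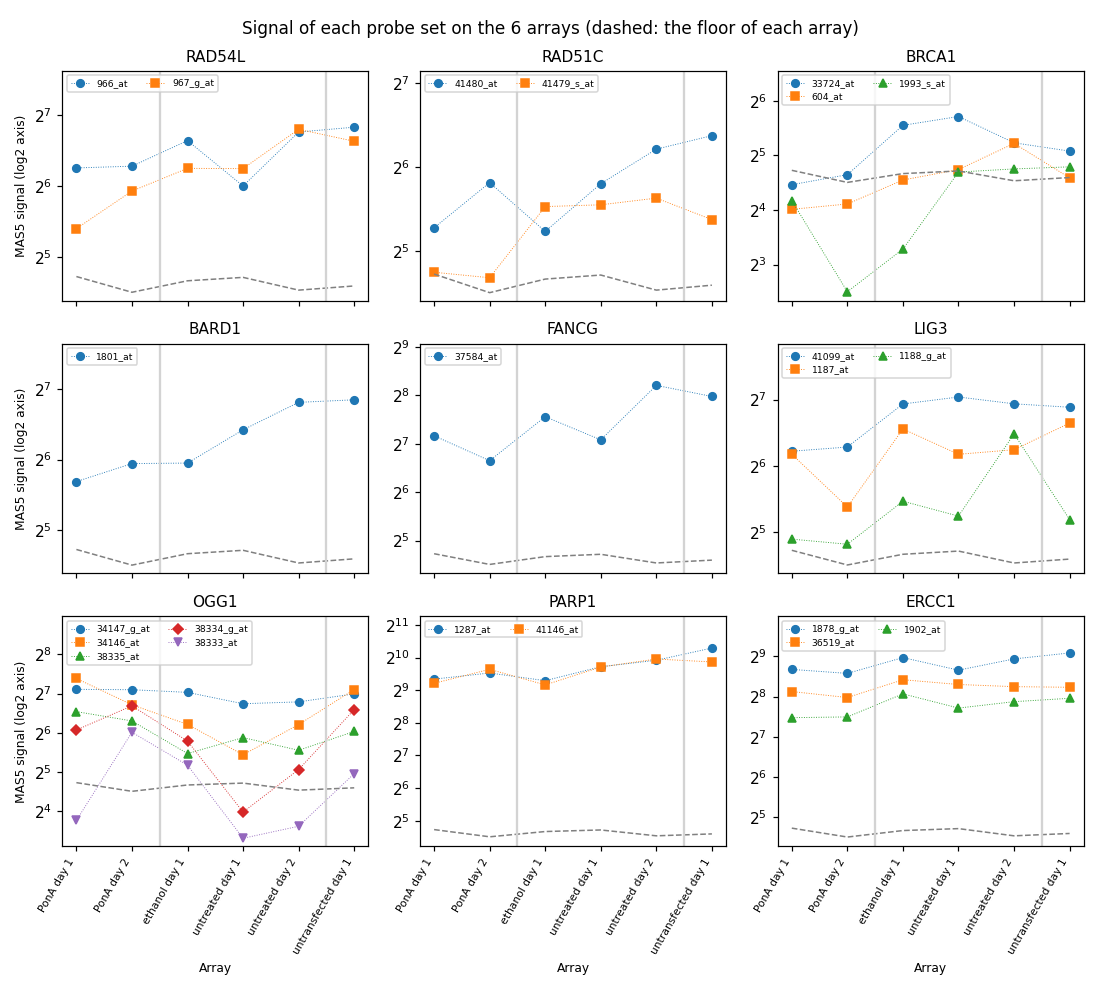
MAS5 signal (y axis, log2 scale) of every probe set of 9 repair genes on the 6 arrays (x axis), with the floor of each array dashed and vertical lines between the PonA, control and untransfected arrays; dotted lines only join points of 1 probe set. RAD51C 41479_s_at gave 26.9 and 25.7 with PonA and at least 46.2 on each control array, and OGG1 34146_at gave 167 and 105 with PonA, at most 74.2 on the control arrays and 138 in untransfected cells.

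The promoters of these genes are shown beside that of PARP1, the excision repair gene with the highest mean signal, because genes of the S and G2 phases often carry a CCAAT box, the site of the factor NF-Y, an E2F site or a cell cycle homology region near their start. The sequences are RefSeq's for GRCh38.p14, from 250 bases before to 50 bases after the first start listed for the gene, 5′ to 3′ on the gene's strand. Capitals mark CCAAT, TTTNNCGC for E2F, and the cell cycle homology cores TTTGAA and TTCGAA, each searched on both strands. RAD54L is on the plus strand at chr1:46247438-46247737, RAD51C on the plus strand at chr17:58692323-58692622 and PARP1 on the minus strand at chr1:226408044-226408343.
RAD54L: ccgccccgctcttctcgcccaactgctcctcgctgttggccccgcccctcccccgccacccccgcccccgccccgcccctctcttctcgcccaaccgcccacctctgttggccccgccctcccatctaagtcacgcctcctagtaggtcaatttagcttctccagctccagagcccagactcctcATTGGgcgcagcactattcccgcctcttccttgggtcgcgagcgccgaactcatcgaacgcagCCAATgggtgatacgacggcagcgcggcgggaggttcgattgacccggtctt
RAD51C: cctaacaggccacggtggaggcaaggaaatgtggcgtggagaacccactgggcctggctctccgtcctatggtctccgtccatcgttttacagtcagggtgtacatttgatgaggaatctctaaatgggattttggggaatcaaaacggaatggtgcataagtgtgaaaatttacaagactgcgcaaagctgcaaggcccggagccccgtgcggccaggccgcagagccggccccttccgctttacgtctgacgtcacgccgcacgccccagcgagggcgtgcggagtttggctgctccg
PARP1: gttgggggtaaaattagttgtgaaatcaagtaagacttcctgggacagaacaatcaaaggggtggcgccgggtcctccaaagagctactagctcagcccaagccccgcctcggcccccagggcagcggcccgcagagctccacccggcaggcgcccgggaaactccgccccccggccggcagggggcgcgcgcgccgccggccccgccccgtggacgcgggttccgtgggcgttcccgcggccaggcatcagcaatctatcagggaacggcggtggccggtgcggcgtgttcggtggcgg
The RAD54L window held 2 CCAAT boxes, at -65 as ATTGG and at -2 from the start, and the windows of RAD51C and PARP1 held none of the letters searched. The windows of ERCC1, the excision repair gene next in mean signal, are not printed. They held 3 CCAAT boxes at 1 start, TTTGAA at another and none of the letters at the remaining one. Over the 12 starts that the table lists for the homologous recombination genes with a probe set, 5 held CCAAT, or 41.7%, and 1 held the E2F letters, or 8.33%. Over the 18 starts of the excision repair genes, 8 held CCAAT, or 44.4%, and 3 the E2F letters, or 16.7%. TTTGAA was held by 0 of the 12 recombination starts and by 3 of the 18 excision repair starts, or 16.7%. TTCGAA was in none of either group. Of all 35116 promoters of this length in the table, 34.6% held CCAAT, 6.89% the E2F letters, 15.2% TTTGAA and 1.45% TTCGAA. Several starts of a gene overlap, and these matches are descriptions of the windows only.

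The other homologous recombination genes had negative effects that did not pass. BRCA1, which directs resected breaks into recombination, was read best by 33724_at, with 22.1 and 25.1 with PonA, against 46.9 with ethanol and 52.5 and 37.6 untreated, and 33.8 in untransfected cells. Both PonA arrays were lower than every control, the first of them under the floor, and the effect was -0.77 ± 0.18 (adjusted p = 0.0655). A second BRCA1 probe set, 604_at, had an effect of -0.29 ± 0.22 (adjusted p = 0.537), and the third, 1993_s_at, was not tested. BARD1, the partner that forms a ubiquitin ligase with BRCA1, gave 51.6 and 61.5 with PonA, against 61.8 with ethanol and 85.7 and 112 untreated. The groups did not overlap, but the PonA array of day 2 and the ethanol array were nearly equal, and the effect was -0.66 ± 0.21 (adjusted p = 0.158). Without the ethanol array BARD1 passed, at -0.80 (adjusted p = 0.0416), while with ethanol as a term its effect was -0.30 (adjusted p = 0.723).

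BLM, the helicase that dissolves crossed DNA intermediates, gave 13.0 and 11.5 with PonA, against 26.9 with ethanol and 20.3 and 39.5 untreated. Both PonA values were under the floor, so its effect of -0.34 ± 0.22 (adjusted p = 0.472) rests on values at the floor. XRCC2 and XRCC3, whose products act in complexes with that of RAD51C, had signals between 13.1 and 35.9 on all arrays and effects of -0.27 ± 0.17 and -0.15 ± 0.19. RAD52, an annealing factor, did not exceed the floor on any array with any of its 3 probe sets. EXO1, a nuclease of both break resection and mismatch repair, was also under it on all 6, reaching 20.1 at most.

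Homologous recombination and excision repair were set side by side as descriptions, with no test of the difference between the groups. On the brightest probe set of each gene, none of 7 tested homologous recombination genes and none of 13 tested excision repair genes passed, against 2.33% lower and 2.66% higher over all named genes tested. All 7 homologous recombination effects were negative, from -0.77 to -0.15 with a median of -0.31. For BLM and XRCC3 the floor all but fixed that sign. Of the 13 excision repair effects 7 were negative and 6 positive, from -0.72 to 0.50 with a median of -0.14. The 2 kinds of excision repair differed in sign, with a median of -0.18 over 6 base excision genes and 0.26 over 7 nucleotide excision genes. Over all named genes 49.2% were negative with a median of 0.01. The homologous recombination median minus that of all 13 excision repair genes was -0.17, and it ranged from -0.46 to -0.22 when each transfected array was left out in turn.

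By comparison of single arrays the median homologous recombination difference was -0.35 for PonA over ethanol at day 1, -0.21 for PonA over untreated cells at day 1 and -0.48 at day 2. For excision repair the same medians were 0.05, 0.02 and -0.02. In the second comparison neither array exceeded the floor for BLM and XRCC3, and over the 5 genes measured there the median was -0.52. The number of homologous recombination genes below 0 was 6 of 7, 4 of those 5 and 7 of 7, where 47.1%, 49.3% and 51.2% of all named genes tested were below 0, or 50.1% of those measured in the second. On the PonA array BRCA1, BLM, XRCC2 and XRCC3 were at the floor at day 1, and BLM and XRCC3 at day 2. Their differences could hardly lie above 0, so these counts partly reflect the floor. BLM counted as lower than with ethanol at -0.02. The first and second comparison share the PonA array of day 1. Ethanol alone over untreated cells gave a median of 0.03 for homologous recombination and -0.03 for excision repair.

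The geometric mean signal of the 7 homologous recombination genes was 35.8 and 36.3 on the PonA arrays, against 44.3 with ethanol and 44.4 and 51.3 untreated, so the PonA arrays were lowest. Signals under the floor entered these means at the floor, among them BRCA1, BLM, XRCC2 and XRCC3 on the PonA array of day 1. That of the 13 excision repair genes was 151 and 145 on the PonA arrays, against 141 with ethanol and 145 and 153 untreated, with the groups overlapping. Genes of the cell cycle moved with PonA in the same arrays. Of 26 tested mitosis genes 24 fell and none rose, with a median effect of -2.08, and of 24 tested DNA replication genes 4 fell and none rose, with a median of -0.71, where 2.33% of all named genes fell and 2.66% rose. Their geometric mean signal was 94.5 and 78.1 with PonA for mitosis, against 323 to 425 on the control arrays, and 83.0 and 72.4 for replication, against 102 to 159. Their part in the level of the recombination genes was not tested.

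**Figure D3:**
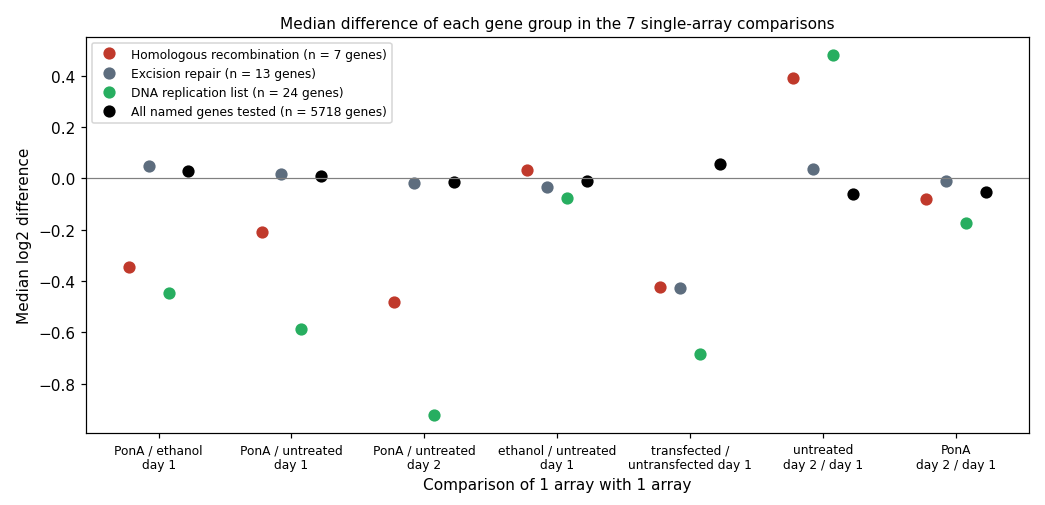
Median log2 difference (y axis) of 7 homologous recombination genes, 13 excision repair genes, 24 DNA replication genes and all 5718 named genes tested, in the 7 comparisons of 1 array with 1 array (x axis). Genes under the floor on both arrays are kept, at the log2 ratio of the 2 floors, which is below 0 between the days. The floors were 26.5 and 22.7 on the PonA arrays of day 1 and day 2, and 26.3 and 23.2 on the untreated transfected arrays. Homologous recombination lies at -0.35, -0.21 and -0.48 in the 3 PonA comparisons and excision repair at 0.05, 0.02 and -0.02, while for transfected over untransfected cells they lie at -0.42 and -0.43.

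Among the base excision repair genes, OGG1 and LIG3 had estimates in opposite directions. OGG1 encodes the glycosylase that removes oxidised guanine, and its 5 tested probe sets had effects from 0.26 to 1.17, all positive. Probe set 34146_at gave 167 and 105 with PonA, against 74.2 with ethanol and 43.4 and 74.1 untreated, and 138 in untransfected cells. The PonA arrays were above the controls but the first of them and the untransfected array were the highest, and the effect was 1.11 ± 0.33 (adjusted p = 0.123). Probe set 38335_at gave 93.1 and 78.9 with PonA, against 44.3 with ethanol and 58.8 and 47.0 untreated, an effect of 0.82 ± 0.19 (adjusted p = 0.0704).

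Probe set 38334_g_at gave 67.3 and 103 with PonA, against 55.3 with ethanol and 15.7 and 33.4 untreated, and 96.5 in untransfected cells. The groups did not overlap, but the control arrays spread widely and 1 of them was under the floor, and its effect was 1.17 ± 0.36 (adjusted p = 0.132). The brightest OGG1 probe set, 34147_g_at, had the smallest effect of the 5, with 138 and 137 with PonA, against 131 with ethanol and 107 and 111 untreated, an effect of 0.26 ± 0.18 (adjusted p = 0.502). The fifth, 38333_at, gave 13.6 and 64.6 with PonA, against 36.1 with ethanol and 9.90 and 12.2 untreated, an effect of 0.51 ± 0.39 (adjusted p = 0.546). Without the ethanol array 2 OGG1 probe sets passed, 38334_g_at at 1.49 and 34146_at at 1.23, and without the untreated array of day 1 it was 38335_at, at 0.91. Without the PonA array of day 1 the effect of 34146_at was 0.50 (adjusted p = 0.688), and with ethanol as a term of its own that of 38334_g_at was 0.35 (adjusted p = 0.656).

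LIG3 encodes the ligase that closes the nick in base excision and single-strand break repair together with XRCC1. Its brightest probe set, 41099_at, gave 74.6 and 78.0 with PonA, against 122 with ethanol and 132 and 122 untreated, and 118 in untransfected cells. The control arrays were close to each other and the PonA arrays lay below all of them, and the effect was -0.72 ± 0.17 (SE, limma adjusted p = 0.0647), short of the threshold. The other probe sets had effects of -0.98 ± 0.29 for 1188_g_at (adjusted p = 0.124) and -0.48 ± 0.23 for 1187_at (adjusted p = 0.328). On 1188_g_at the untreated array of day 2 stood high, at 89.5 against 28.2 with PonA, while the other arrays lay between 29.8 and 44.2. This probe set passed without the PonA array of day 1, at -1.66 (adjusted p = 0.0419), and without the untreated array of day 1, at -1.12 (adjusted p = 0.0491), but its effect was -0.46 without the PonA array of day 2 or without the untreated array of day 2 (adjusted p = 0.633 and 0.607).

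UNG, which removes uracil from DNA, gave 128 and 138 with PonA, against 75.3 with ethanol and 84.6 and 115 untreated, an effect of 0.50 ± 0.19 (adjusted p = 0.209). PARP1, the sensor of strand breaks, gave 648 and 739 with PonA on its brightest probe set, against 627 with ethanol and 844 and 969 untreated, and 1255 in untransfected cells. The groups overlapped through the ethanol array, and both PARP1 probe sets had an effect of -0.26 (adjusted p = 0.552 and 0.580). APEX1, the nuclease that cuts at sites without a base, and the scaffold gene XRCC1 had effects of -0.21 ± 0.16 and -0.15 ± 0.19.

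**Figure D4:**
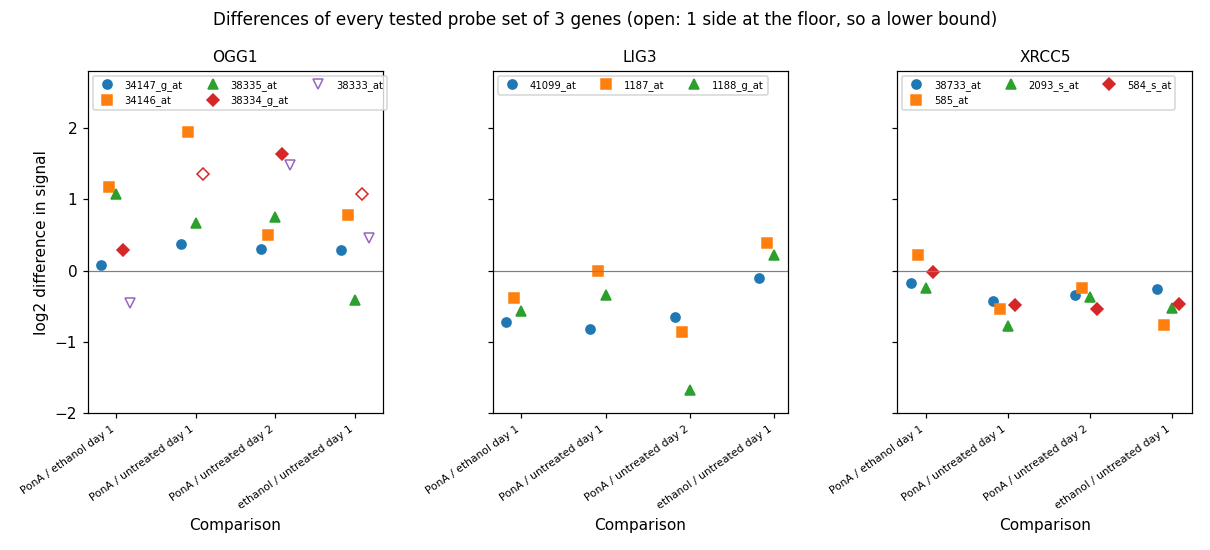
Log2 difference in signal (y axis) of every tested probe set of OGG1, LIG3 and XRCC5 in the 3 PonA comparisons and in ethanol over untreated cells at day 1 (x axis), with open symbols where 1 side was at the floor. The 5 OGG1 probe sets spread from -0.45 to 1.95 in the PonA comparisons, and the ethanol array differs from the untreated one by at least 1.07 on OGG1 38334_g_at and by -0.76 on XRCC5 585_at.

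Nucleotide excision repair genes gave effects of either sign and none passed. ERCC1, which forms the nuclease that cuts 5′ of a lesion with ERCC4, gave 409 and 382 with PonA on its brightest probe set, against 502 with ethanol and 404 and 490 untreated, and 543 in untransfected cells, and the PonA and control arrays overlapped. Its 3 probe sets had effects from -0.40 to -0.23. ERCC2 and ERCC3 encode the helicases of the TFIIH complex. The brightest ERCC2 probe set gave 193 and 131 with PonA, against 139 with ethanol and 117 and 114 untreated, an effect of 0.43 ± 0.19 (adjusted p = 0.288), while its other 3 lay between -0.18 and 0.02. ERCC3 gave between 181 and 230 on all 6 arrays, an effect of -0.14 ± 0.17.

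The damage-recognition genes XPC and RAD23B encode partners in 1 complex, and their estimates had opposite signs, -0.26 ± 0.19 and 0.40 ± 0.20 (adjusted p = 0.530 and 0.347). A second XPC and a second RAD23B probe set were under the floor on all 6 arrays. XPA, which verifies the lesion, had effects from -0.12 to 0.38 over 3 probe sets, and ERCC4 of 0.26 ± 0.30 and -0.07 ± 0.20 over 2, with the remaining probe set under the floor throughout.

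End joining genes had mostly negative estimates, and none passed. XRCC6 and XRCC5 encode the Ku70 and Ku80 subunits that cap broken ends, and PRKDC the kinase that Ku recruits. XRCC6 gave 1265 and 1500 with PonA on 32766_at, against 1827 with ethanol and 2031 and 2102 untreated, and 2111 in untransfected cells. The PonA arrays were below every other array, by an effect of -0.56 ± 0.17 (adjusted p = 0.130). The dimmer XRCC6 probe set, 32274_r_at, had a positive estimate, at 131 and 155 with PonA, against 108 with ethanol and 130 and 89.5 untreated (0.42 ± 0.22, adjusted p = 0.358).

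The 4 XRCC5 probe sets had effects from -0.45 to -0.20, and its brightest gave 620 and 664 with PonA, against 698 with ethanol and 830 and 840 untreated. The 3 PRKDC probe sets had effects from -0.25 to -0.08, with overlapping groups. LIG4, the ligase of this pathway, and XRCC4, its partner, did not exceed the floor on any array, and their highest signals were 16.9 and 20.1.

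FANCG, of the Fanconi core complex that marks crosslinked DNA, varied between the control arrays. It gave 144 and 101 with PonA, against 189 with ethanol and 136 and 296 untreated, and 252 in untransfected cells. The PonA and control arrays overlapped at day 1, and at day 2 the signal was 2.94-fold lower with PonA, but untreated cells were themselves 2.18-fold higher at day 2 than at day 1. The effect was -0.76 ± 0.34 (adjusted p = 0.296). FANCC, of the same complex, was above the floor on at most 2 of the 6 arrays.

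NBN, which brings ATM to breaks as part of the complex with MRE11 and RAD50, gave 226 and 272 with PonA, against 275 with ethanol and 374 and 285 untreated, and 203 in untransfected cells, an effect of -0.32 ± 0.22 (adjusted p = 0.493). MRE11, the nuclease of the complex, was tested on 1 of 3 probe sets, at -0.22 ± 0.17, and both RAD50 probe sets were under the floor on all 6 arrays. In mismatch repair, MSH6 and MSH3 encode subunits of the complexes that recognise mismatches. MSH6 gave 81.8 and 89.2 with PonA, against 70.7 with ethanol and 136 and 72.7 untreated, and 131 in untransfected cells, with overlap of the PonA and control arrays and an effect of -0.02 ± 0.31 (adjusted p = 0.982), and MSH3 had an effect of -0.25 ± 0.23. PMS1, a MutL-type gene, was above the floor on 1 array only, on 1 of its 3 probe sets.

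The checkpoint kinases could be read only in part. ATR gave 49.4 and 52.6 with PonA, against 56.2 with ethanol and 46.1 and 49.0 untreated, and 38.5 in untransfected cells, an effect of 0.02 ± 0.18 (adjusted p = 0.974). ATM was read by 2000_at alone, with 40.2 and 27.3 with PonA, against 28.2 with ethanol and 34.4 and 27.3 untreated, an effect of 0.21 ± 0.19 (adjusted p = 0.622). CHEK1 reached 15.2 at most, under the floor of every array. CHEK2 was above it only in untreated transfected cells at day 2, at 29.6, where PonA-treated cells of that day gave 5.27, at least 1.30-fold lower. Neither effector kinase was tested.

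Other repair and checkpoint genes outside the 43 were counted from lists of their pathways. Of 47 tested genes 6 fell and none rose, against 2.33% and 2.66% of all named genes. H2AX, the histone variant phosphorylated around breaks, gave 344 and 291 with PonA, against 1200 with ethanol and 1257 and 1483 untreated, and fell by 2.05 ± 0.19 on the log2 scale (SE, limma adjusted p = 0.00441). The flap endonuclease gene FEN1 fell by 1.44 ± 0.23, the Fanconi gene FANCI by 1.43 ± 0.24, and LIG1, the ligase of replication and long-patch base excision repair, by 1.21 ± 0.20 with both PonA arrays under the floor. RPA3, a subunit of the single-strand binding protein RPA, fell by 1.14 ± 0.19, and MDC1, the mediator that binds phosphorylated H2AX, by 0.86 ± 0.16. Their adjusted p lay between 0.00441 and 0.0371. Of 9 tested p53 target genes none passed, with effects from -0.48 to 0.63 and a median of 0.15. CDKN1A, the inhibitor of cyclin-dependent kinases that p53 induces, gave 226 and 268 with PonA, against 232 with ethanol and 150 and 268 untreated.

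Whether the PonA effect differed between the days was fitted with a PonA-by-day term on 1 residual degree of freedom. In limma it called none of the 55 member probe sets and 0% of all 7934, and 3 of the 55 had an unadjusted p under 0.05, against 4.16% of all. These 3 were OGG1 38333_at, at 1.69 (unadjusted p = 0.00727, adjusted p = 0.917), FANCG at -1.40 and LIG3 1188_g_at at -1.21. By size, 2 of 54 member probe sets were at least 2-fold higher with PonA than with ethanol at day 1 and none lower, where 3.23% of all probe sets were higher and 2.4% lower, 5.62% in all. Against untreated cells at day 1 it was 2 of 52 higher and none lower, where 3.58% were higher and 3.12% lower, 6.71% in all. All of these were OGG1 probe sets, with 34146_at 2.25-fold higher than with ethanol and 3.86-fold higher than untreated. At day 2, 2 of 58 were higher, both of OGG1, against 4.67% of all, and 2 were lower, FANCG and LIG3 1188_g_at, against 4.04%, or 8.71% in all. Between ethanol and no treatment at day 1 the count was 1 of 54 higher and none lower, where 1.04% were higher and 1.15% lower, 2.18% in all, and it was again OGG1, where 38334_g_at was at least 2.10-fold higher with ethanol.

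Most excision repair genes gave a lower signal in transfected untreated cells than in untransfected cells at day 1, with 1 array on each side and no replicate check. Of the 13 excision repair genes 11 were lower in transfected cells, where 44.9% of all named genes were, and the median difference was -0.43, against 0.05 over all. The geometric mean signal of these 13 genes was 141 to 153 on all 5 transfected arrays, against 189 in untransfected cells, while that of all named genes was 137 to 145 on the transfected arrays, against 138. UNG was 1.80-fold lower in transfected cells, XPC 1.74-fold and RAD23B 1.70-fold, while ERCC4 was 1.58-fold higher. Of 57 member probe sets 2 were at least 2-fold lower in transfected cells, both of OGG1, against 2.64% of all, and none higher, against 3.08%, or 5.72% in all. Probe set 34146_at gave 43.4 in transfected and 138 in untransfected cells, and 38334_g_at gave 15.7, under the floor, in transfected and 96.5 in untransfected cells, which is at least 3.67-fold lower. The brightest OGG1 probe set, 34147_g_at, differed little, at 107 in transfected and 127 in untransfected cells, or -0.25 on the log2 scale.

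The homologous recombination median in this comparison was -0.42, with 5 of 7 genes lower, and that of the DNA replication list -0.69, with 21 of 24 lower. A lower signal in transfected cells was therefore not particular to excision repair. In the other direction NBN was 1.85-fold and BRCA1 1.55-fold higher in transfected cells. The arrays also differed in the astroglial marker GFAP, at 103 in transfected untreated cells at day 1 and 1533 in untransfected cells, in the neuronal marker NEFL, at 26.5 and 458, and in the spike-in level given above, and the part of these in the differences above was not tested. Between untreated transfected cells at day 2 and day 1, the homologous recombination median was 0.39 and the excision repair median 0.04, against -0.06 over all named genes. Of 57 member probe sets 2 were at least 2-fold higher at day 2, FANCG and LIG3 1188_g_at, against 1.04% of all, and 1 was at least 2.08-fold lower, ERCC4 1258_s_at, against 2.15%, or 3.19% in all. Between the PonA arrays 1 of 51 was at least 2.44-fold higher at day 2, OGG1 38333_at, against 0.882% of all, and 1 was at least 2.05-fold lower, XPA 1995_at, against 2.05%, or 2.93% in all.

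Probe sets of the same gene gave a further view of the spread of the effects, and whether the gaps between them are error of measurement was not tested. Among 14 genes with at least 2 tested probe sets, 10 had effects of 1 sign throughout and 4 of mixed signs, ERCC2, ERCC4, XPA and XRCC6. The largest gaps between probe sets of a gene were 0.98 for XRCC6 and 0.91 for OGG1, and those of RAD54L and RAD51C were 0.61 and 0.55, against a median SE of 0.19. The median size of the difference between ethanol and untreated cells at day 1 was 0.32 over member probe sets, and that between PonA and ethanol at day 1 was 0.28. Over all probe sets the same values were 0.24 and 0.25.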

How the data were processed

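Gene expression of U373 cells was measured on 6 arrays, each of them its own group. The deposited values are linear intensity, the MAS5 signal per the submitters' processing notes, and their trimmed mean without the lowest and highest 2% was 150.07 to 150.08 on every array, so the authors had scaled them. MAS5's version, detection calls and a genome build are not given in the sources used here. Of 12625 probe sets, 67 controls were used only for quality. Symbols came from GEO's platform annotation, updated through Entrez identifiers to RefSeq (GRCh38.p14). Where 1 value per gene is used, it is that of the brightest probe set by mean signal.

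Signals were floored at each array's 40th percentile and put on the log2 scale. The PonA effect came from limma 3.58.1 in R 4.3.3 (lmFit, eBayes) with terms for PonA and day, over the 5 transfected arrays and the probe sets that exceeded the floor on 2 or more of them, with 2 residual and 4.48 prior degrees of freedom. The procedure was tested on simulated data with independent noise and changes larger than those of the members that passed. That run therefore does not show how the fit performs on these unreplicated arrays. Comparisons of 1 array with 1 array have no p-value, and differences of 2-fold or more were counted among probe sets measured on 1 side or both. A fold with 1 side at the floor is a lower bound. Precision is limited by the number of arrays. The members, lists and role groups were chosen with earlier results of these data known. All 43 members are named. Values on every array are given for members with a probe set that passed, for those 2-fold apart between transfected and untransfected cells and for the brightest member of each role, and for further members chosen after their values were seen. Alternatives changed the floor, scale, filter, normalization, design, moderation, probe set rule and arrays used.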

Additional observations from a re-analysis of the deposited data

How the results depend on the processing

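The count of 2 member probe sets lower with PonA was between 0 and 3 when each transfected array was left out in turn, and that of higher ones, 0 as reported, between 0 and 2, while the count over all probe sets, 402 as reported, was lowest, at 111, when PonA at day 2 was left out and highest, at 725, when ethanol was. It was 0 lower with ethanol as a term of its own, with the floor at the 20th percentile and with no filter on dim probe sets, where 185, 107 and 29 of all probe sets passed, and 1 lower with the floor at the 60th percentile (1 higher, OGG1 34146_at), with log2(signal + 32), and without the term for day. Over all probe sets 625 passed with a trend in eBayes and 619 with log2(signal + 32). The RAD51C call held in 7 of 14 alternatives and the RAD54L call in 6 of 15, and neither effect changed sign in any. LIG3 41099_at passed with the floor at the 60th percentile and when all 5 arrays had to exceed the floor, and XRCC6 32766_at passed with a trend in eBayes. The homologous recombination median, -0.31 as reported, was -0.60 with the floor at the 20th percentile and -0.53 with the mean over all probe sets of a gene, and between -0.48 and -0.24 with 1 array left out. Its distance from the excision repair median, -0.17, was -0.45 and -0.39 in the same alternatives, -0.40 with ethanol as a term, and between -0.46 and -0.22 with 1 array left out. The excision repair median, -0.14, lay between -0.13 and -0.02 with 1 array left out and was 0.04 with ethanol as a term. Member probe sets at least 2-fold apart in any of the 7 single-array comparisons numbered 8, or 24 with the floor at the 20th percentile and 34 at 1.5-fold. The cause of these shifts was not tested. Quantile normalization and median scaling kept both counts of members. The single-array homologous recombination median for PonA over untreated cells at day 1, -0.21, was -0.52 over the genes above the floor on either array, an alternative chosen after seeing the data, and between the PonA arrays it was 0.02 in place of -0.08. No paired analysis was possible because each group holds 1 array and so shares no replicate numbers beyond it, and day, which PonA and untreated arrays share, is already a term of the fit. Signals near the floor limit what can be read for 9 of the 39 genes, which had no probe set tested: RAD52, FANCC, RAD50, PMS1, EXO1, XRCC4, LIG4, CHEK1 and CHEK2.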
